A study of Mus musculus with 21 samples.

Results

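Luteal and thecal steroidogenesis was followed here through 9 mouse genes, Lhcgr, Ptgfr, Scarb1, Star, Cyp11a1, Fdx1, Hsd3b1, Cyp17a1 and Akr1c18, out of 55335 gene identifiers in the tables. They were taken by gene name for their known roles, a rule that uses no measured value, though earlier results of these data were known when they were chosen. RNA of oocytes (12 libraries) and of granulosa cells (9 libraries) was sequenced from female ICR mice. The Young group was 6 to 8 weeks old and the Aged group 18 months old. The Aged + Unsorted, Aged + LRP1high and Aged + LRP1low groups were mice of the Aged age whose ovaries had received human umbilical cord mesenchymal stem cells 3 weeks earlier, either unsorted or sorted for a high or a low surface level of LRP1, a lipoprotein receptor. Granulosa cells had 1 Young, 2 Aged, 1 Aged + Unsorted, 3 Aged + LRP1high and 2 Aged + LRP1low libraries. Oocytes had 3, 2, 2, 3 and 2 libraries in that order. The question for these genes was whether age or any of the transplanted cells went along with a different level of the steroid pathway in the host's own cells, and the labels do not say which libraries came from the same mouse.

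Ovarian steroids are made from cholesterol. Lhcgr, the receptor of luteinizing hormone, switches the pathway on in theca and luteinizing granulosa cells, and Scarb1 takes up cholesterol from high-density lipoprotein. Star carries cholesterol into the mitochondrion, where Cyp11a1, fed with electrons by Fdx1, cuts it to pregnenolone. Hsd3b1 turns pregnenolone into progesterone, and Cyp17a1, in the ovary mainly an enzyme of theca cells, leads on to androgens. In rodents Ptgfr, the receptor of prostaglandin F2alpha, and Akr1c18, the 20alpha-hydroxysteroid dehydrogenase that inactivates progesterone, belong to the regression of the corpus luteum.

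Upstream sequence is shown for the 3 genes whose levels the results turn on most, among those with a close start site. For these RefSeq (GRCm38.p6) gave a start site at most 46 bases from the GENCODE start of the gene. The sequence covers 250 bases up to the start site, on the strand of the gene, where factors that drive a gene can bind. Binding was not measured. Hsd3b1 is at chr3:98859795-98860044 (minus strand), Fdx1 at chr9:51963603-51963852 (minus strand) and Akr1c18 at chr13:4150647-4150896 (minus strand). Capitals mark GATAA, the core bound by GATA factors, or its reverse complement.
Hsd3b1: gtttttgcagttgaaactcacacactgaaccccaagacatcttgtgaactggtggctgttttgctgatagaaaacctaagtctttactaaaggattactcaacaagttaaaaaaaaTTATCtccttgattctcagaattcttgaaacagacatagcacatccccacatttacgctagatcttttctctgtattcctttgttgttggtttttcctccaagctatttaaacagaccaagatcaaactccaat
Fdx1: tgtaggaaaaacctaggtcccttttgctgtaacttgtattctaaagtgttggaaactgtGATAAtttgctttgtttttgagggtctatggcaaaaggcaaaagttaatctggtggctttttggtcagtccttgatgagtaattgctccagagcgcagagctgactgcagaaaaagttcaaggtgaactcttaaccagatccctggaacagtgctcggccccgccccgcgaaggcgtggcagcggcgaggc
Akr1c18: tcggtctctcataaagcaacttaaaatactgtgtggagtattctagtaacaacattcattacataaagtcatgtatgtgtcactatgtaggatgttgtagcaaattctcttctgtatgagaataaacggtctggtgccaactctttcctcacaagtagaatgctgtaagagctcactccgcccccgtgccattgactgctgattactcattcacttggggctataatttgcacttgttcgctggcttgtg
RefSeq upstream sequence was matched for 6 of the 9 genes, not always at the GENCODE start. The 2 windows of Cyp11a1 had start sites 8387 and 8541 bases from it, and that of Ptgfr 102 bases. AAGGTCA, the core bound by the orphan receptors Nr5a1 and Nr5a2, was searched on both strands and found upstream of 0 of these 6, and in 4.08% of 32851 upstream windows of this length. GATAA was found upstream of 2 of the 6, Hsd3b1 at 134 and Fdx1 at 191 bases before the start, and in 22.6% of all windows. TGACGTCA, the cyclic AMP response element, was found upstream of 0 of the 6 and in 1.55% of all windows. The motifs did not overlap in the windows shown.

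Several libraries stood apart before any comparison. All values are FPKM, fragments scaled to transcript length and library size, which can be set side by side between genes. In the granulosa cell libraries 10 genes of a satellite-like repeat family, Gm10800 and its relatives, took 7.84% of the expression (as TPM, a share of all transcripts) in Young 1 and 25.9% in Aged + Unsorted 1, but 93.4% in Aged 1, 95.4% in Aged 2, 96.4% in Aged + LRP1high 2 and 97.0% in Aged + LRP1low 2. In the other libraries, Aged + LRP1high 1, Aged + LRP1high 3 and Aged + LRP1low 1, they took 82.5%, 68.5% and 66.8%. The 10 granulosa and cumulus markers (among them Foxl2, Fshr, Inha, Inhba and Fst) summed to 1640 FPKM in Young 1 and 653 in Aged + LRP1high 3. They summed to 162 in Aged + LRP1low 1 and 30.6 in Aged + LRP1high 1. The sum was 1.65 in Aged 1 and 1.45 in Aged 2, with 0 of the 10 markers at 1 FPKM or more in either, so the labelled cell type could not be checked in the Aged group. Aged + LRP1high 2 (3.27) and Aged + LRP1low 2 (4.93) were nearly as low. Aged + Unsorted 1 held all 9 oocyte markers, with a sum of 9497 FPKM against 0.681 to 48.1 in the other granulosa cell libraries. The 5 theca markers summed to 1.35 to 61.2 FPKM, and Insl3, the most specific of them, was listed at 0 in 7 of the 9. Stroma markers summed to 2.33 to 176, immune markers to 1.33 to 20.04 and endothelial markers to 0.344 to 31.9 FPKM. Among the oocyte libraries, Young 1, Aged 1 and both Aged + LRP1low libraries held oocyte markers at a sum of only 9.24 to 159 FPKM. Read depth at 1 FPKM was 0.335 to 1.49 reads per base in granulosa cells and 0.278 to 3.40 in oocytes. Values under about 1 FPKM therefore rest on few reads, and so do some higher ones. Scarb1 at 10.01 FPKM in granulosa Young 1 had a mean depth of 0.65 reads per base, and at 33.2 FPKM in oocyte Aged 1 of 0.94. In oocyte Aged + LRP1low 2, Fdx1 at 4.63 FPKM had 0.79. What part these differences between libraries had in the results was not tested.

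**Figure D1:**
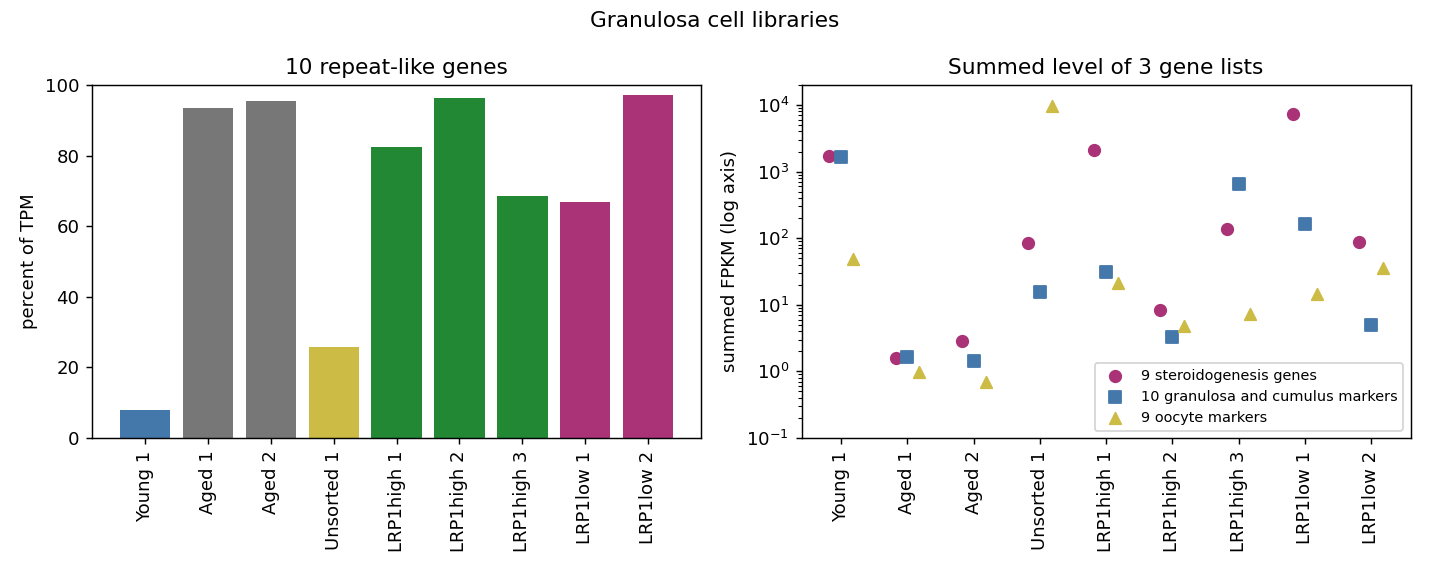
Left, percent of TPM taken by the 10 repeat-like genes in each granulosa cell library (bars). Right, summed FPKM on a log axis of the 9 steroidogenesis genes, 10 granulosa and cumulus markers and 9 oocyte markers (1 point per list and library). The steroidogenesis sum runs from 1.61 in Aged 1 to 7252 in Aged + LRP1low 1, and does not follow the granulosa markers in Aged + LRP1high 1 (2139 against 30.6).

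The 2 receptors and the lipoprotein receptor were modest in level. In these bulk libraries fewer cells of a type and less RNA per cell cannot be told apart. Lhcgr stood at 42.2 FPKM in Young 1, 0.301 and 0.597 in Aged, 0.202 in Aged + Unsorted, 5.80, 0.333 and 1.82 in Aged + LRP1high and 78.8 and 0.262 in Aged + LRP1low. Only Young 1 and Aged + LRP1low 1 were above 10, and the LRP1high libraries overlapped the Aged values while the LRP1low pair lay on both sides of them. Ptgfr stood at 19.2 in Young 1, 0.227 and 0.337 in Aged, 1.83 in Aged + Unsorted, 24.3, 0.229 and 0.907 in Aged + LRP1high and 151 and 0.943 in Aged + LRP1low. Here both LRP1low libraries lay above both Aged libraries, while Aged + LRP1high 2 did not. Ptgfr was lower than Lhcgr in Young 1, with a ratio of 0.455, and higher in Aged + LRP1high 1 (4.19) and Aged + LRP1low 1 (1.92). Scarb1 was highest in Young 1 at 10.01, against 0.471 and 0.419 in Aged, 4.23 in Aged + Unsorted, 4.54, 0.463 and 2.37 in Aged + LRP1high and 0 and 1.15 in Aged + LRP1low. It was listed at 0 in Aged + LRP1low 1, the library in which most of the other genes were highest.

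The mitochondrial step held the most abundant genes. Cyp11a1, the side-chain cleavage enzyme, stood at 632 FPKM in Young 1, 0 and 0.0497 in Aged, 6.89 in Aged + Unsorted, 1341, 0.683 and 11.1 in Aged + LRP1high and 3503 and 42.2 in Aged + LRP1low. Replicates lay far apart, with Aged + LRP1high 1 above Young 1 and Aged + LRP1high 2 below Aged + Unsorted 1. Fdx1, its electron donor, stood at 687 in Young 1, 0.240 and 0.375 in Aged, 57.6 in Aged + Unsorted, 338, 0.406 and 47.8 in Aged + LRP1high and 1592 and 12.3 in Aged + LRP1low. Star, the cholesterol carrier, was far lower, at 13.4 in Young 1, 0 and 0.243 in Aged, 6.15 in Aged + Unsorted, 4.95, 0.340 and 20.4 in Aged + LRP1high and 176 and 2.98 in Aged + LRP1low. For all 3 genes the lowest LRP1high and LRP1low libraries were above the higher Aged library, as they were for 50.4% and 30.5% of all genes tested. Cyp11a1 exceeded Star 47.1 times in Young 1, 271 times in Aged + LRP1high 1, 19.9 times in Aged + LRP1low 1 and 14.2 times in Aged + LRP1low 2. In Aged + LRP1high 3 the order was turned, with a ratio of 0.547, and in Aged + Unsorted 1 the genes were nearly level at 1.12.

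The later enzymes parted from each other. Hsd3b1 stood at 322 FPKM in Young 1, 0 and 0.567 in Aged, 3.15 in Aged + Unsorted, 27.4, 0 and 50.6 in Aged + LRP1high and 861 and 4.98 in Aged + LRP1low. It was the leading gene of the 9 in Aged + LRP1high 3, the library with the second highest granulosa marker sum, where it made up 36.6% of their summed FPKM against 1.28% in Aged + LRP1high 1. Hsd3b1 shares 2.16% of its 50-base words with the other Hsd3b genes, so few of its reads could belong to those. Cyp17a1 stood at 6.85 in Young 1, 0.159 and 0.0360 in Aged, 0.216 in Aged + Unsorted, 7.13, 0.146 and 0.474 in Aged + LRP1high and 0 and 0.524 in Aged + LRP1low. The theca enzyme was thus at 1 FPKM or more in 2 of 9 granulosa cell libraries, and was listed at 0 where Cyp11a1 was highest.

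Akr1c18, the progesterone-inactivating enzyme, had a profile of its own. It stood at 1.23 FPKM in Young 1, 0.214 and 0.273 in Aged, 3.33 in Aged + Unsorted, 386, 5.78 and 2.77 in Aged + LRP1high and 890 and 21.4 in Aged + LRP1low. It was thus low in Young 1, the library in which Cyp11a1, Fdx1 and Hsd3b1 stood at 632, 687 and 322 FPKM. A ratio within a library does not depend on how much of that library the repeat family took. Akr1c18 reached 0.00195 of the Cyp11a1 level in Young 1, against 0.288 in Aged + LRP1high 1, 0.248 in Aged + LRP1high 3, 0.254 in Aged + LRP1low 1, 0.507 in Aged + LRP1low 2 and 0.483 in Aged + Unsorted 1. These 5 ratios lay between 0.248 and 0.507, all above that of the only Young library. All 5 libraries came from mice that were both 18 months old and transplanted, so age and transplantation cannot be told apart here. In Aged + Unsorted 1 the oocyte markers summed to 9497 FPKM and the granulosa and cumulus markers to 15.3. Aged + LRP1high 2 is not among the 5, since Cyp11a1 was at 0.683 FPKM there, under the 1 FPKM asked of both genes, beside Akr1c18 at 5.78. Against Hsd3b1 the ratios were wider, at 0.00383 in Young 1, 0.0547 in Aged + LRP1high 3, 1.03 in Aged + LRP1low 1, 1.05 in Aged + Unsorted 1, 4.30 in Aged + LRP1low 2 and 14.1 in Aged + LRP1high 1. In both Aged libraries and in Aged + LRP1high 2 at least 1 gene of each pair was under 1 FPKM, and no ratio was taken there. The differences between these ratios were not tested. Akr1c18 shares 0.581% of its 50-base words with related genes of its family.

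**Figure D2:**
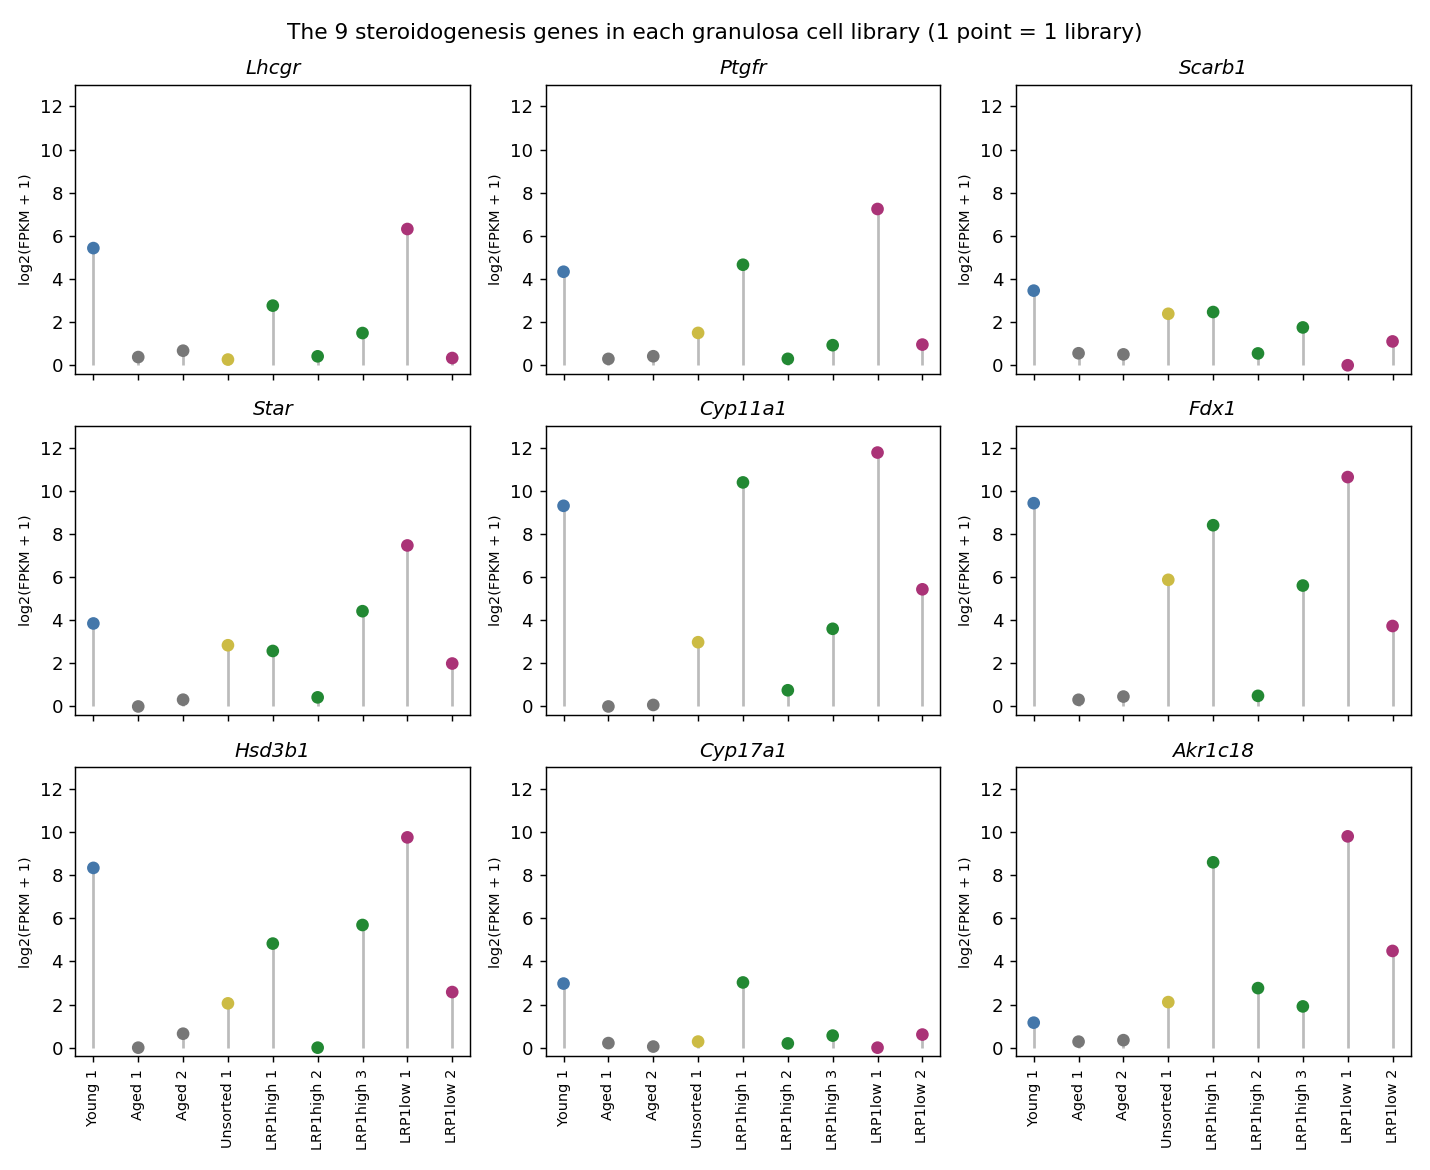
Level of each of the 9 genes, as log2(FPKM + 1), in the 9 granulosa cell libraries (1 point per library, coloured by group). Aged + LRP1low 1 is the highest library for 7 genes, Young 1 for Scarb1 and Aged + LRP1high 1 for Cyp17a1, and both Aged libraries stay under 1 FPKM for all 9.

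The rank of a gene among the protein-coding genes of its own library gave this contrast only in part. By rank Aged + Unsorted 1 stood beside the Aged libraries and Young 1, unlike by its ratio to Cyp11a1. Akr1c18 was above 99.9% of protein-coding genes in Aged + LRP1high 1, 99.8% in Aged + LRP1high 2, 99.8% in Aged + LRP1low 1 and 99.6% in Aged + LRP1low 2. It was above 87.8% in Aged + LRP1high 3, 69.0% and 66.4% in the Aged libraries, 66.5% in Aged + Unsorted 1 and 56.7% in Young 1. In Aged + LRP1high 2 this rank rested on 5.78 FPKM at a mean read depth of 7.37 per base, and no other of the 9 genes reached 1 FPKM there. Cyp11a1 was above 99.6% in Young 1, 99.9% in Aged + LRP1high 1, 94.8% in Aged + LRP1high 3 and 75.4% in Aged + LRP1high 2. In Aged + LRP1low 1 and 2 it was above 99.97% and 99.8%. A rank depends on how many genes a library holds. Genes at 1 FPKM or more numbered 2734 and 2089 in Aged, 4842 in Aged + LRP1high 2 and 5331 in Aged + LRP1low 2, against 12128 in Young 1.

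**Figure D3:**
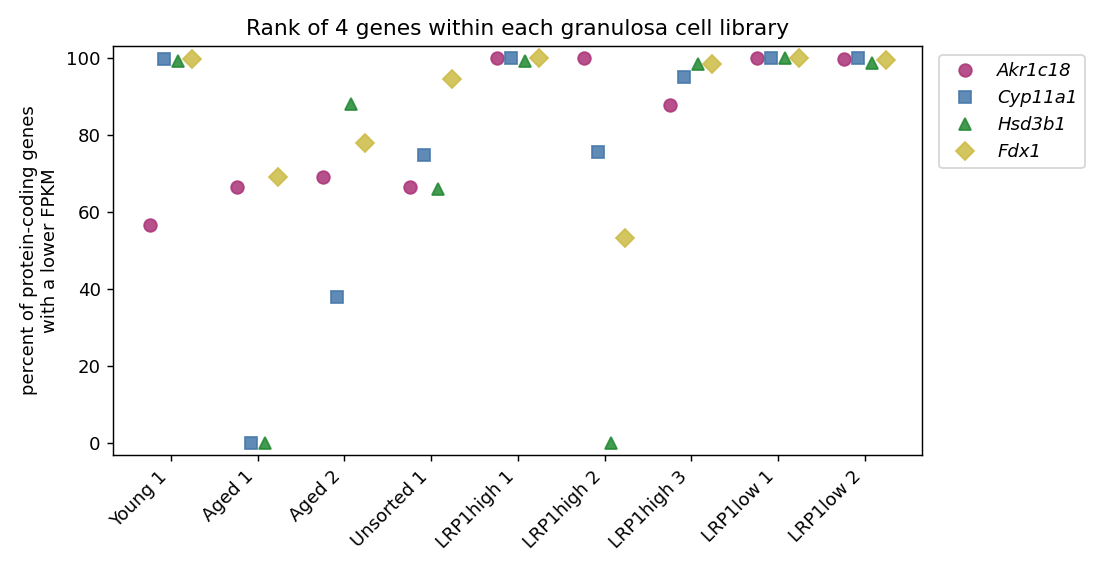
Percent of protein-coding genes with a lower FPKM than Akr1c18, Cyp11a1, Hsd3b1 and Fdx1 within each granulosa cell library (1 point per gene and library; a gene listed at 0 is at 0 percent). Akr1c18 is at 99.6 or more in 4 libraries, and at 56.7 in Young 1, where the other 3 genes are above 99.

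By mean level over the 9 granulosa cell libraries the order was Cyp11a1 (615 FPKM), Fdx1 (304), Akr1c18 (146), Hsd3b1 (141), Star (24.9), Ptgfr (22.1), Lhcgr (14.5), Scarb1 (2.63) and Cyp17a1 (1.73). Each gene's range overlapped that of its neighbours in this order. Aged + LRP1low 1 alone supplied between 58.2% (Fdx1) and 78.4% (Star) of the summed level of the 7 genes that were highest there. The make-up of the 9 genes' sum differed between the libraries in which it reached 10 FPKM. Cyp11a1 made up 62.7% in Aged + LRP1high 1, 48.3% and 48.7% in the LRP1low libraries, 36.4% in Young 1 and 8.06% in Aged + LRP1high 3. Akr1c18 made up 18.0%, 12.3%, 24.7%, 0.0712% and 2.00% in the same order. In Aged + Unsorted 1, the library with oocyte markers, Fdx1 made up 68.9%.

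**Figure D4:**
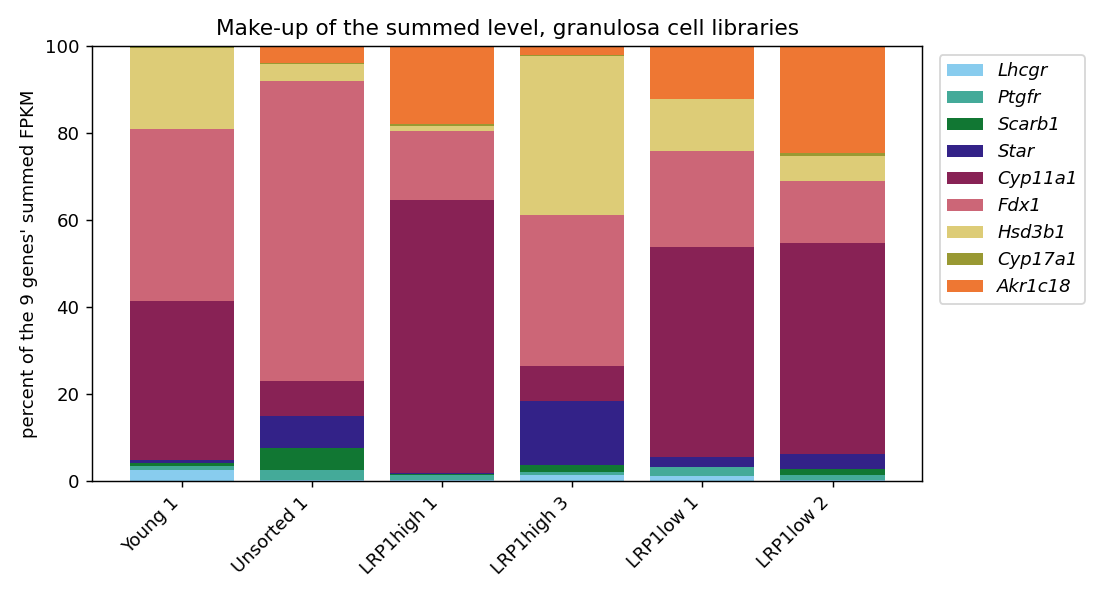
Percent of the summed FPKM of the 9 genes held by each gene, in the 6 granulosa cell libraries whose sum reached 10 FPKM (stacked bars). Akr1c18 holds 0.0712% in Young 1 and 24.7% in Aged + LRP1low 2, and Hsd3b1 leads only in Aged + LRP1high 3, at 36.6%.

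The fit across all genes called none of these differences. It used limma on log2(FPKM + 1), kept genes with a mean of at least 1 FPKM, and called a gene at a fold over 1.5 with a Benjamini-Hochberg adjusted p under 0.05. All 9 genes passed the filter in granulosa cells, where 13002 genes were tested. A fold on this scale understates the change of a low gene. The labels number the libraries as biological replicates but do not say whether each came from a separate animal. A p therefore measures only the spread between these libraries.

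For Aged + LRP1high against Aged, 0 of the 9 genes were called by limma, and 0 at an unadjusted p under 0.05 with the same fold. Over all genes 0% were called and 8.51% passed unadjusted. All 9 differences were above 0, with a median of 2.31, and so were 92.8% of all genes tested, whose median was 0.89. Cyp11a1 differed by 4.88 ± 3.15 (log2, SE, limma adjusted p = 0.461), Fdx1 by 4.45 ± 2.84 (0.461), Akr1c18 by 4.11 ± 2.42 (0.459) and Hsd3b1 by 3.18 ± 2.54 (0.488). Star differed by 2.31 ± 1.84, Ptgfr by 1.61 ± 2.12, Cyp17a1 by 1.13 ± 0.89, Scarb1 by 1.06 ± 0.67 and Lhcgr by 1.03 ± 1.74, with adjusted p from 0.461 to 0.693. Leaving out 1 library moved these values by over 1.5 times. Cyp11a1 was 2.14, Akr1c18 2.02, Fdx1 2.67 and Ptgfr 0.26 without Aged + LRP1high 1, Hsd3b1 4.93 without Aged + LRP1high 2 and 2.09 without Aged + LRP1high 3, and Star 1.34 without Aged + LRP1high 3. Star, Cyp11a1, Fdx1 and Akr1c18 were higher in every LRP1high library than in every Aged library, as were 50.4% of all genes tested. Without Aged + LRP1high 2 and Aged + LRP1low 2 again 0 of the 9 were called (0% of all genes).

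For Aged + LRP1low against Aged, 0 of the 9 were called (0% of all genes), and 2 passed at an unadjusted p under 0.05, Cyp11a1 and Akr1c18, where 3.79% of all genes did. Cyp11a1 differed by 8.57 ± 3.45 and Akr1c18 by 6.83 ± 2.65 on the log2 scale (SE, limma adjusted p = 0.904 for both). Fdx1 differed by 6.80 ± 3.11, Hsd3b1 by 5.84 ± 2.78, Star by 4.57 ± 2.01, Ptgfr by 3.75 ± 2.32 and Lhcgr by 2.80 ± 1.91, and Cyp17a1 (0.17 ± 0.98) and Scarb1 (0.02 ± 0.74) were near 0. The median of the 9 was 4.57, against 0.31 over all genes. Without Aged + LRP1low 1 the differences were 5.40 for Cyp11a1, 4.17 for Akr1c18, 3.35 for Fdx1, 2.26 for Hsd3b1, 1.83 for Star and 0.60 for Ptgfr. Ptgfr, Star, Cyp11a1, Fdx1, Hsd3b1 and Akr1c18 were higher in both LRP1low libraries than in both Aged libraries, as were 30.5% of all genes. Without Aged + LRP1high 2 and Aged + LRP1low 2, Lhcgr (5.79, limma adjusted p = 0.0495) and Hsd3b1 (9.43, adjusted p = 0.0331) were called, beside 5.67% of all genes. The lone LRP1low library was there assumed to vary like the other groups. No setting could leave out both Aged libraries, since no Aged group then remained.

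Set directly against each other, Aged + LRP1high and Aged + LRP1low overlapped for all 9 genes, while 21.7% of all genes tested were higher and 2.28% lower in every LRP1high library than in every LRP1low library. None was called (0% of all genes), and 0 passed at an unadjusted p under 0.05, where 5.15% of all genes did. Cyp11a1 was 3.69 ± 3.15 lower in Aged + LRP1high on the log2 scale, Akr1c18 2.72 ± 2.42, Hsd3b1 2.66 ± 2.54, Fdx1 2.35 ± 2.84, Star 2.26 ± 1.84, Ptgfr 2.14 ± 2.12 and Lhcgr 1.77 ± 1.74 lower. Scarb1 was 1.04 ± 0.67 and Cyp17a1 0.96 ± 0.89 higher. Adjusted p ran from 0.629 to 0.697 (limma). These intervals are wide enough to hold large differences either way.

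For Aged against Young, with 1 Young library, all 9 genes were lower in both Aged libraries, as were 78.5% of all genes. None was called, while 31.8% of all genes were, and 1 of the 9, Scarb1, passed unadjusted, where 48.7% of all genes did. The log2 differences were -9.27 ± 4.23 for Cyp11a1, -9.04 ± 3.81 for Fdx1, -8.01 ± 3.41 for Hsd3b1, -4.91 ± 2.34 for Lhcgr, -3.98 ± 2.84 for Ptgfr, -3.69 ± 2.46 for Star, -2.93 ± 0.90 for Scarb1, -2.84 ± 1.20 for Cyp17a1 and -0.85 ± 3.25 for Akr1c18. Scarb1 had the smallest adjusted p, 0.0543 (limma). Fitted on the Young and Aged libraries alone, 8 of the 9, all but Akr1c18, were called lower, but so were 82.2% of all genes called, since only the spread between both Aged libraries then entered. The repeat family's share and the granulosa markers moved with this contrast as given above, and their part was not tested.

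For Aged + Unsorted against Aged, again with 1 library, 0 of the 9 were called against 42.4% of all genes, and 0 passed unadjusted against 50.8%. Fdx1 differed most, by 5.49 ± 3.81 (log2, SE, limma adjusted p = 0.307), then Cyp11a1 by 2.94 ± 4.23, Star by 2.68 ± 2.46, Scarb1 by 1.86 ± 0.90, Akr1c18 by 1.80 ± 3.25, Hsd3b1 by 1.73 ± 3.41, Ptgfr by 1.14 ± 2.84, Cyp17a1 by 0.15 ± 1.20 and Lhcgr by -0.26 ± 2.34. On those 3 libraries alone 5 of the 9 were called higher (Scarb1, Star, Cyp11a1, Fdx1 and Akr1c18), where 80.3% of all genes were called. In the fit over all groups the median of the 9 was 1.80, against 2.51 over all genes. The Aged + Unsorted library carried oocyte RNA, with 9 of 9 oocyte markers present.

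In the oocyte libraries most of the 9 genes were low, and Fdx1 was the most abundant by mean level, at 31.6 FPKM, ahead of Scarb1 at 6.47. Fdx1 stood at 3.28, 0 and 12.3 FPKM in the Young libraries, 1.03 and 76.3 in Aged, 63.6 and 54.8 in Aged + Unsorted, 37.8, 4.58 and 116 in Aged + LRP1high and 5.53 and 4.63 in Aged + LRP1low. It was at 1 FPKM or more in 11 of 12 libraries and above 10 in 6, all of them libraries rich in oocyte markers. Akr1c18 was listed at 0 in 8 of 12, with at most 4.97 FPKM in Aged + LRP1low 1. Lhcgr reached at most 4.07, Hsd3b1 4.79, Ptgfr 5.69, Star 8.38 and Cyp11a1 11.3, the last with both LRP1low libraries above 10. Many genes were at such levels in the LRP1low libraries. In Aged + LRP1low 1 the 9 genes ranked from above 12.4% (Hsd3b1) to above 97.9% (Scarb1) of protein-coding genes, with Akr1c18 at 46.9% and Cyp11a1 at 90.3%. In Aged + LRP1low 2 they ranked from 36.9% (Akr1c18) to 94.9% (Scarb1). Scarb1 stood at 33.2 in Aged 1 and at 16.3 and 12.01 in the LRP1low libraries, at mean depths of only 0.94, 0.62 and 0.27 reads per base. It was at 1 FPKM or more in 8 of 12. Cyp17a1 reached 25.4 in Aged 2 and was above 10 in no other library.

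Star in oocytes stood at 0.660, 0 and 0.0278 FPKM in the Young libraries, 8.38 and 4.82 in Aged, 0.130 and 3.50 in Aged + Unsorted, 0, 0.0983 and 0.109 in Aged + LRP1high and 7.43 and 4.43 in Aged + LRP1low. Cyp17a1 stood at 1.22, 0 and 0 in the Young libraries, 4.05 and 25.4 in Aged, 0 and 0 in Aged + Unsorted, 0, 1.17 and 0 in Aged + LRP1high and 5.25 and 4.06 in Aged + LRP1low. Ptgfr stood at 0.0824, 0 and 0 in the Young libraries, 5.20 and 1.67 in Aged, 2.96 and 1.40 in Aged + Unsorted, 0, 0.125 and 0.0342 in Aged + LRP1high and 3.36 and 5.69 in Aged + LRP1low. For all 3 genes the Aged libraries lay above every Young library, as they did for 11% of all genes tested, and above every LRP1high library, as they did for 12.4%. Immune markers summed to 48.4 and 64.7 FPKM in the Aged oocyte libraries, against 0.636 to 8.91 in Young and 0.524 to 16.0 in Aged + LRP1high, with 5 and 3 of 7 markers at 1 FPKM or more in Aged. C1qa was listed at 0 in both Aged libraries. Theca markers summed to 33.6 and 16.2 FPKM in Aged and to 30.9 and 17.4 in Aged + LRP1low, against 0 to 6.24 in Young, 1.70 to 4.53 in Aged + LRP1high and 0 to 0.426 in Aged + Unsorted. In Aged 3 and 1 of the 5 theca markers were at 1 FPKM or more, and Insl3 was listed at 0 in both. The other lists were raised in Aged + LRP1low too, with immune markers at 43.3 and 37.8 FPKM and stroma markers at 38.8 and 33.4. All 7 immune, 6 stroma and 4 endothelial markers were at 1 FPKM or more in both, as were 47920 and 38934 genes in all. Stroma markers summed to 32.6 in Aged 1 and 0.974 in Aged 2. The part of these marker lists was not tested.

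**Figure D5:**
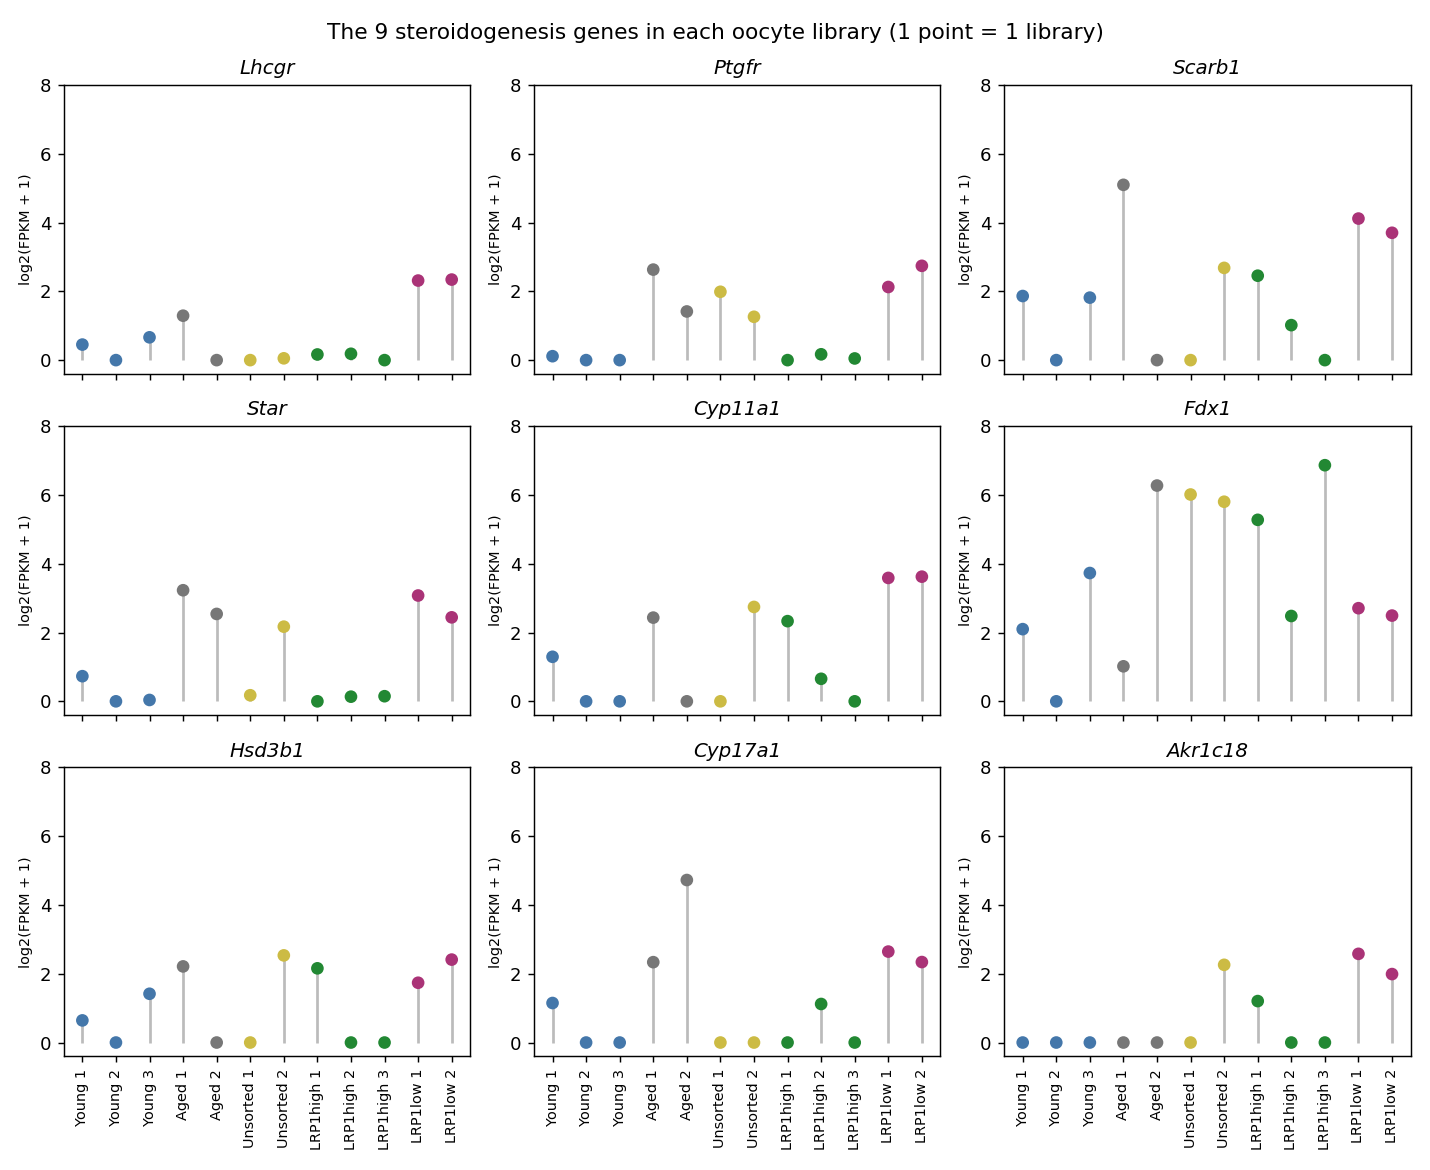
Level of each of the 9 genes, as log2(FPKM + 1), in the 12 oocyte libraries (1 point per library, coloured by group). Fdx1 is above 10 FPKM in 6 libraries, and Star, Cyp17a1 and Ptgfr lie higher in the Aged pair than in any Young or Aged + LRP1high library.

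By limma, with 28004 genes tested, 0 of the members were called between oocyte groups, all but Lhcgr having passed the filter. Of all genes 0.0964% were called for Aged against Young, 0.771% for Aged + LRP1high against Aged, 0% for Aged + Unsorted against Aged and 3.17% for Aged + LRP1low against Aged. Star, Ptgfr and Cyp17a1 were the 3 members that passed at an unadjusted p under 0.05 for Aged against Young and for Aged + LRP1high against Aged, where 8.65% and 10.9% of all genes did. Both comparisons share the Aged libraries. Star and Cyp17a1 passed unadjusted for Aged + Unsorted against Aged (8.74% of all genes), and Akr1c18 for Aged + LRP1low against Aged (14.1%). Without Young 1 and Aged 1, Cyp17a1 was called, with Aged above each of the other groups compared (Young, Aged + LRP1high, Aged + Unsorted), beside 8.20%, 8.49% and 7.65% of all genes called. All 3 calls then rested on Aged 2 alone.

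Between the cell types 0 of the 9 genes were called (3% of 21767 genes were). At an unadjusted p under 0.05 with the same fold, 5 of the 9 passed, all higher in granulosa cells. They were Cyp11a1, Hsd3b1, Akr1c18, Lhcgr and Star. Of all genes 21.4% passed in either direction, 268 genes higher and 4395 lower in granulosa cells. Leaving out Aged + LRP1high 2 and Aged + LRP1low 2 of the granulosa cells and Young 1 and Aged 1 of the oocytes, 5 of the 9 were called higher in granulosa cells (Lhcgr, Ptgfr, Star, Cyp11a1 and Hsd3b1), where 10.5% of all genes were called in either direction. The libraries left out were chosen after seeing the data, and others that stood apart were kept. Kept were both granulosa Aged libraries, granulosa Aged + Unsorted 1 and both oocyte Aged + LRP1low libraries. The share of all genes called higher alone was not taken. An interaction tested whether the difference of Aged + LRP1high or Aged + LRP1low from Aged was itself different in granulosa cells and oocytes. In either, 0 of the 9 genes were called (0% of all genes in both). At an unadjusted p under 0.05, Star (5.10 ± 1.77) and Cyp17a1 (4.29 ± 1.24) passed for Aged + LRP1high, where 16% of all genes did, and Star (4.70 ± 1.94) and Fdx1 (7.85 ± 3.30) for Aged + LRP1low, where 6.41% did, each log2 difference being higher in granulosa cells than in oocytes. For Star and Cyp17a1 under Aged + LRP1high it was above 0 in granulosa cells and below 0 in oocytes.

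The wider pathway was taken from lists of other steroid enzymes (22 genes), cholesterol supply (24) and luteinizing hormone and prolactin signalling with its transcription factors (24), of which 10, 21 and 20 passed the filter in granulosa cells. None was called for Aged + LRP1high or Aged + LRP1low against Aged, or between them. Against Aged, the median log2 differences in Aged + LRP1high were 1.75, 1.25 and 1.26 for the 3 lists (0.89 over all genes), and in Aged + LRP1low 2.06, 2.30 and 1.16 (0.31 over all genes). For Aged against Young 2, 4 and 6 genes were called lower and 0 higher, out of 10, 21 and 20 tested, beside 31.8% called over all genes. Among them were Hsd17b1, which makes oestradiol (-6.47 ± 1.78), the epoxide hydrolase Ephx2 (-7.21 ± 1.75), the cholesterol synthesis enzyme Sqle (-5.13 ± 0.57), Npc2 (-4.64 ± 0.59) and Npc1 (-1.82 ± 0.46). In the signalling list the protein kinase A subunits Prkar2b (-8.63 ± 2.10) and Prkaca (-3.71 ± 0.56) were lower. So were the transcription factors Nr5a2 (-6.10 ± 0.60) and Gata6 (-5.43 ± 1.19). For Aged + Unsorted against Aged 0, 5 and 3 were called higher, where 42.4% of all genes were called, led by Fdft1 (7.35 ± 2.14), Npc2 (4.49 ± 0.59), Abcg1 (4.41 ± 0.55), Npc1 (3.29 ± 0.46), Prkaca (3.46 ± 0.56), Nr5a2 (3.04 ± 0.60) and Adcy9 (1.86 ± 0.45). All of these values are log2 differences ± SE by limma. Over all genes the median was -2.25 for Aged against Young and 2.51 for Aged + Unsorted against Aged. Npc1 in the first contrast and Adcy9 in the second moved less than this median, and the other genes named moved more. Each contrast has a group of 1 library.

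The most abundant genes of the lists differed in the library where they were highest. Insig1, which holds back cholesterol synthesis, stood at 1424 FPKM in Young 1, 0.218 and 0.239 in Aged, 799 in Aged + Unsorted, 342, 26.6 and 6712 in Aged + LRP1high and 4036 and 199 in Aged + LRP1low. Soat1, which stores cholesterol as ester, stood at 1120 in Young 1, 0.151 and 0.331 in Aged, 24.6 in Aged + Unsorted, 496, 7.88 and 2232 in Aged + LRP1high and 709 and 21.6 in Aged + LRP1low. Both were highest in Aged + LRP1high 3, where Cyp11a1 was at 11.1. Akr1cl, a relative of Akr1c18, was highest in Young 1 at 1441, with 0.138 and 0.447 in Aged, 8.22 in Aged + Unsorted, 85.03, 0.531 and 218 in Aged + LRP1high and 864 and 6.04 in Aged + LRP1low. Akr1cl was thus high in Young 1, where Akr1c18 was low. Cyb5a, an electron carrier to Cyp17a1, stood at 1315 in Young 1, 0 and 0 in Aged, 291 in Aged + Unsorted, 1.19, 0.343 and 373 in Aged + LRP1high and 151 and 17.0 in Aged + LRP1low. The kinase Sgk1 ranged from 0.228 in Aged 1 to 667 in Aged + LRP1low 1 and Gnas, the stimulatory G protein, from 0.147 in Aged 2 to 264 in Aged + LRP1low 1. Cyp19a1, aromatase, stood at 15.5 in Young 1 and 10.2 in Aged + LRP1high 3 and at 2.16 or less elsewhere.

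Likeness of pattern was described by Pearson's r of log2(FPKM + 1) over the 9 granulosa cell libraries, among 2255 genes with a mean of at least 10 FPKM, values that share the libraries and their scale. The genes most like Cyp11a1 were Acsl4 (0.968), Mgst1 (0.951) and Mcts1 (0.945), and those most like Fdx1 were Sgk1 (0.982), Mgst1 (0.973) and Srsf5 (0.972). Hsd3b1 was followed most closely by Sfrp4 (0.983), Akr1cl (0.980) and Cd81 (0.975), Star by Arpc1a (0.952), Ctsb (0.952) and Sra1 (0.948), Lhcgr by Mier1 (0.991), Slc25a36 (0.984) and Fam136a (0.982), and Ptgfr by Slc50a1 (0.988), Naxd (0.987) and Pus10 (0.984). Akr1c18 had no neighbour above 0.867, the value of Spp1 (osteopontin). Among the members themselves r lay between 0.784 and 0.938 for the 6 others of this mean level, and between 0.538 (Lhcgr) and 0.786 (Cyp11a1) for Akr1c18 with each of them.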

How the data were processed

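The authors aligned reads with HISAT2 2.2.1 and assembled them with StringTie 1.3.3b, per the labels. The labels name the build mm9, while 54577 of the 55335 gene identifiers matched GENCODE M21 (GRCm38), whose coordinates are used here. The labels name a stranded KAPA kit and the study's methods Smart-seq2, so the kit is uncertain. The authors deposited, per gene, FPKM, TPM and coverage (mean reads per base), with no counts. FPKM was summed over repeated identifiers. The 9 genes and all lists were chosen with earlier results of these data known. log2(FPKM + 1) was tested with limma 3.58.1 (R 4.3.3) over all groups of a cell type, leaving out genes averaging under 1 FPKM, at a fold over 1.5 and a Benjamini-Hochberg adjusted p under 0.05. The fit was checked on data with known changes. All 9 genes were named in every library, with fold changes in the granulosa cell comparisons. List genes were named where called, up to 4 per list and comparison, otherwise the 2 most abundant, and Cyp19a1 was added after its values were seen. The values of 1 list gene are not reported here. Depth was read as the median of coverage over FPKM in 21693 genes with 1 exon. Of 210 pairs of libraries, 0 held identical values. Alternatives were a pseudocount of 0.1, TPM, no filter, quantile normalization, a trended robust fit, only the groups compared, a replicate block and leaving out each library. Rescaling TPM without the 10 repeat-like genes and leaving out libraries that stand apart were added after seeing the data. The libraries left out were only part of those that stood apart. Same-numbered granulosa cell libraries deviated together with correlations from -0.076 to 0.256, so the numbers were not taken to pair them.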

Additional observations from a re-analysis of the deposited data

Results flagged for a closer look

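For some genes every library lay to one side in granulosa cells and to the opposite side in oocytes under the same contrast. Of all genes tested, 78.5% were lower in this way in granulosa cells and 11% higher in oocytes for Aged against Young. For Aged + LRP1high against Aged 50.4% were higher in granulosa cells and 12.4% lower in oocytes, and for Aged + Unsorted against Aged 84.2% and 11.3%. The share of genes that did both was not taken. For Aged against Young the log2 differences were -3.98 in granulosa cells and 1.99 in oocytes for Ptgfr, -3.69 and 2.63 for Star, and -2.84 and 3.15 for Cyp17a1, with 1 Young granulosa cell library, and the difference between the cell types was not tested. For Aged + LRP1high against Aged, Star differed by 2.31 in granulosa cells and by -2.79 in oocytes, and the interaction of 5.10 was not called (limma adjusted p = 0.179). For Aged + Unsorted against Aged, Star differed by 2.68 and -1.71 and Cyp17a1 by 0.15 and -3.53, again with the difference not tested. The Cyp17a1 value in granulosa cells rests on levels under 1 FPKM and turned to -0.85 with quantile normalization, -0.25 with the replicate block and -0.63 when rescaled without the repeat-like genes. The Aged libraries are shared by these contrasts.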

How the results depend on the processing

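The main fits called 0 of the members tested in all 12 comparisons. Lhcgr did not pass the filter in the comparisons between oocyte groups, so 8 were tested there. The counts below are members called under another setting, with the share of all genes tested that the same setting called. For granulosa cells, Aged against Young gave 1 with TPM (38.6%), 1 with the trended robust fit (33.7%) and 8 on both groups alone (82.2%), Aged + Unsorted against Aged gave 5 on both groups alone (80.3%), and Aged + LRP1low against Aged gave 2 without the libraries that stand apart (5.67%). For oocytes, Aged against Young gave 2 with TPM (2.14%), 1 with no filter (1.59%), 1 without the libraries that stand apart (8.2%) and 0 to 3 leaving out each library. Aged + LRP1high against Aged gave 2 (2.69%), 2 (2.05%), 1 (8.49%) and 0 to 4 under the same settings. Aged + Unsorted against Aged gave 1 without the libraries that stand apart (7.65%) and 0 to 1 leaving out each library. In these 3 comparisons 3 (33%), 4 (39.5%) and 1 (36.9%) came without Aged 2, and 1 (3.79%), 1 (4.59%) and 1 (3.73%) without Aged 1. Aged + LRP1low against Aged gave 2 with no filter (21.8%), 1 with quantile normalization (0.814%) and 1 when rescaled without the repeat-like genes (18.4%). Granulosa cells against oocytes gave 2 with the pseudocount of 0.1 (3.46%), 3 with quantile normalization (1.39%), 5 without the libraries that stand apart (10.5%) and 0 to 3 leaving out each library, with 3 (15.2%) without granulosa Aged + Unsorted 1 and 3 (1.96%) without Aged + LRP1low 2. The interaction for Aged + LRP1high gave 0 to 1, with 1 (3.23%) without oocyte Aged 1 and 1 (35.6%) without oocyte Aged 2. With a replicate block 0 were called in every comparison in which it could be fitted. The causes were not tested, except that fits on both groups alone rest on 1 degree of freedom.

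Scaling moved the median of all genes for Aged against Young from -2.25 to 0.08 with quantile normalization, 0.31 when rescaled and -2.03 with the block. For Aged + LRP1high against Aged, quantile normalization turned Lhcgr to -0.48 and Scarb1 to -0.37. For Aged + LRP1low against Aged, Scarb1 turned to -0.62 with the pseudocount of 0.1, -0.71 with quantile normalization, -0.42 when rescaled and -0.53 without the libraries that stand apart (leaving out each library, -0.53 to 0.57). Cyp17a1 turned to -0.11 with quantile normalization and -0.13 without the libraries that stand apart (-0.13 to 0.48), and Lhcgr ran from -0.19 to 5.79. For Aged + LRP1high against Aged + LRP1low, all 5 genes that turned did so without Aged + LRP1low 1, and leaving out each library gave -4.76 to 1.22 for Lhcgr, -5.28 to 1.00 for Ptgfr, -5.00 to 0.48 for Star, -5.80 to 1.10 for Fdx1 and -6.25 to 0.93 for Hsd3b1. For Aged against Young, quantile normalization turned Scarb1 to 0.33 and Akr1c18 to 0.87, and Akr1c18 was 1.00 with the replicate block and 0.59 when rescaled. For Aged + Unsorted against Aged, quantile normalization gave -0.91 for Ptgfr, -1.002 for Scarb1, -0.44 for Hsd3b1, -0.85 for Cyp17a1 and -0.57 for Akr1c18. The replicate block gave -0.61 for Ptgfr, -0.16 for Hsd3b1, -0.25 for Cyp17a1 and -0.047 for Akr1c18, and rescaling gave -0.11 for Ptgfr and -0.63 for Cyp17a1. Depth limits values under about 1 FPKM, and some higher ones as given above.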
